A study of Homo sapiens with 2 samples.

Results

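The genes described here are 10 classical blood cell targets of RUNX1: SPI1, CSF1R, CSF2, IL3, MPO, ELANE, GFI1, CEBPA, ITGA2B and TAL1. They were chosen by name, and the question was which of them carry or lack RUNX1 in mammary epithelium. All 10 were found among the 20033 protein-coding genes of the RefSeq table used here. A gene was counted as having a peak when a summit lay in its interval or within 50 kb on either side, and 6 of the 13591 listed peaks met that rule.

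RUNX1 binding had been measured by chromatin immunoprecipitation and sequencing (ChIPseq) in cells derived from MCF10A. This widely used line from human breast epithelium does not itself form tumours. The immunoprecipitate and its input both came from cells whose own RUNX1 was deleted and which carried an inducible lentiviral RUNX1, switched on with 1 µg/ml doxycycline for 24 hours. The RUNX1 bound here was therefore the vector's and not the natural protein at its natural level. The paper reports that RUNX1 deletion transformed MCF10A cells in culture and in mice. It also reports that ChIPseq of the natural protein gave no strong binding to chromatin. There was 1 library of each kind, with 80338845 kept ChIP tags and 87410774 kept input tags, so no value below has a replicate and no test between groups was possible.

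RUNX1 is a DNA-binding protein that works as a pair with CBFB and is required for blood stem cells to form in the embryo. In blood it acts with partners such as PU.1, the product of SPI1, and C/EBPα, the product of CEBPA, to switch on genes of the myeloid, platelet and lymphoid lineages. Its preferred DNA word is TGTGGT, or TGCGGT, and several of the 10 genes have long served as textbook cases because such words stand in their promoters or enhancers.

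The promoter words are shown first because they separate the genes at which the word and a peak occurred together from those at which only the word occurred. RefSeq promoters (GRCh38.p14, 250 bases before to 50 after a start) were matched for 7 of the 10 genes, with 11 starts. SPI1, MPO and ELANE were not matched. TGTGGT or TGCGGT stood on either strand in 5 of these 11 promoters, in 5 genes. Of the 22198 listed promoters of protein-coding genes, which cover 15842 genes, 19.0% held it. The bases before the CSF2 start, at chr5:132073539-132073788 on the plus strand, are given whole because a peak covers most of them, and capitals mark the word.
CSF2, bases before the start: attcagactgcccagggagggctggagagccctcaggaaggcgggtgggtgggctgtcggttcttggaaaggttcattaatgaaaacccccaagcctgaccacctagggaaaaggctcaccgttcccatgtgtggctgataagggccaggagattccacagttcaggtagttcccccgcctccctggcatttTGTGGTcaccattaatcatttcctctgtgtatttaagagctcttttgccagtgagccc

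The other promoters with the word are given as 30 bases around it, read along the gene. They lie at chr5:132060503-132060532 (plus strand) for IL3, chr5:150086608-150086637 (minus) for the inner of the 2 listed CSF1R starts, chr1:92486129-92486158 (minus) for the middle of the 3 GFI1 starts and chr1:47231754-47231783 (minus) for the inner of the 2 TAL1 starts, and capitals again mark the word.
IL3: aataattacgtcTGTGGTtttctatggagg
CSF1R: atttccaaactcTGTGGTtgccttgcctag
GFI1: ggaagtgaagctTGTGGTtttgggggctga
TAL1: tctgtgtccgagTGTGGTgtgcctgcgcgg

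The same inner TAL1 promoter held 4 such words, with first bases 188, 150, 90 and 56 before the start, and only 8 of the 22198 promoters held 4 or more. Of these promoters with the word, the CSF2 promoter alone had a summit inside. A summit inside was rare in general, occurring in 1.45% of the listed promoters. The word was found in 63.6% of the 321 promoters with a summit (95% Wilson interval 58.2 to 68.6%) and in 18.3% of the 21877 without (17.8 to 18.8%). These intervals cover counting error only, and a match is a description and not a shown binding site.

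Of the 10 genes, 5 had a peak within 50 kb, namely SPI1, CSF1R, CSF2, IL3 and ELANE. The other 5, MPO, GFI1, CEBPA, ITGA2B and TAL1, had 0. Among all protein-coding genes 52.1% had a peak by the same rule, so the count for the blood targets lay at the background. Within the gene alone the count was 2, SPI1 and CSF1R, against a background of 18.7%. Within 5 kb it was 3, with CSF2 added, against 24.8%, and within 100 kb it was 8 against 68.2%. The median length of the 10 genes was 12.5 kb and that of all genes 24.1 kb, and a longer gene offers more room for a summit.

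**Figure D1:**
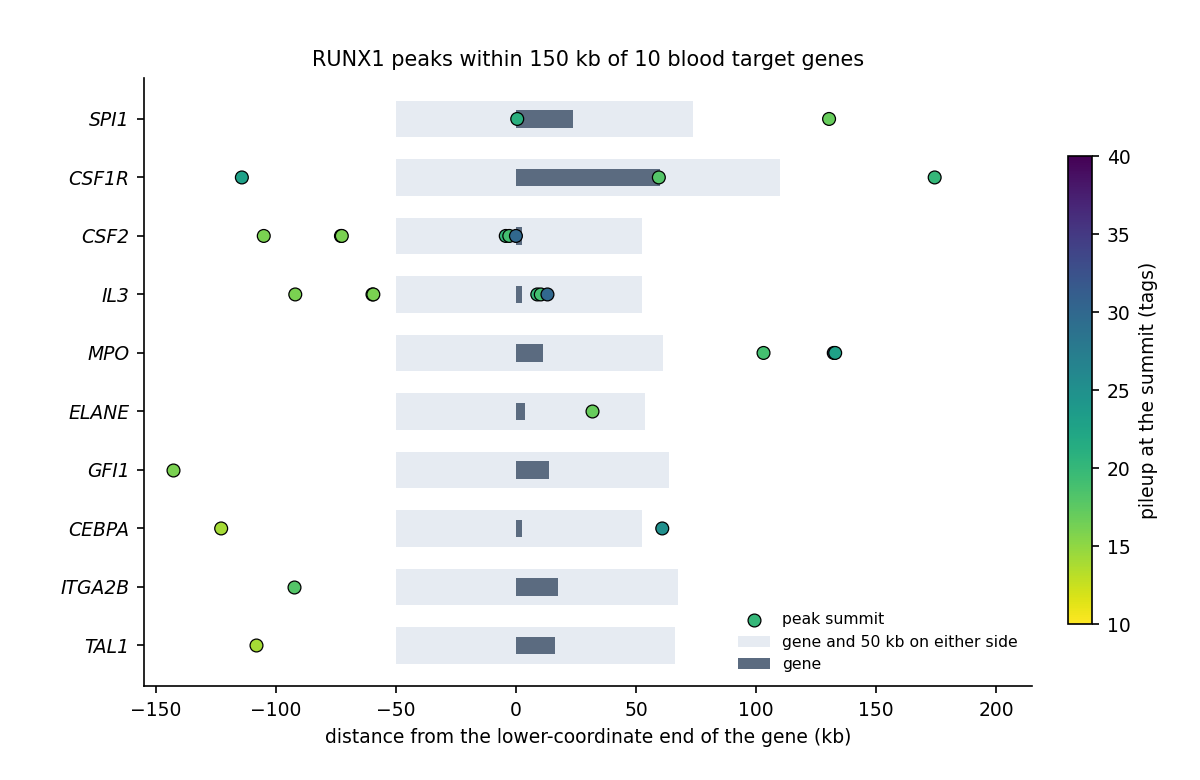
Map of the peaks within 150 kb of each gene, with the distance from the gene's lower-coordinate end in kb on the x axis, 1 gene per line, the gene as a dark bar, the gene with 50 kb on either side as a pale bar, and summits as points coloured by pileup in tags. SPI1, CSF1R, CSF2, IL3 and ELANE have summits within their pale bars, and MPO, GFI1, CEBPA, ITGA2B and TAL1 have 0 there.

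Of the 10 genes, the cytokine genes CSF2 and IL3 had the most peaks in their windows. CSF2 encodes GM-CSF, the growth factor of granulocytes and macrophages, and IL3 encodes interleukin 3, a growth factor of early blood cells. The genes lie 10.6 kb apart on the long arm of chromosome 5, and both are read in the same direction. Between them lay 3 peaks, which counted for both genes because their windows overlap.

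The peak with the highest −log10 q spanned chr5:132073617-132073826 and had its summit 28 bp before the start of CSF2. The pileup, which counts the extended ChIP tags that cover the summit, was 30 (exact 95% Poisson interval 20.2 to 42.8). The fold enrichment over the local background was 8.18 and the −log10 q was 16.7, rank 1175 in the list, with 8.64% of all peaks higher. The word TGTGGT printed above, at chr5:132073731-132073736, stood 25 bp from this summit. Among 306 genes with a summit in a listed promoter, CSF2 ranked 15 by −log10 q.

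The other peaks stood 2802 bp and 4265 bp before the CSF2 start. The nearer spanned chr5:132070882-132071090 and had 19 tags (11.4 to 29.7), a fold enrichment of 3.07 and a −log10 q of 2.53, and 92.3% of all peaks had a higher one. The farther spanned chr5:132069463-132069678 and had 20 tags (12.2 to 30.9), a fold enrichment of 5.75 and a −log10 q of 8.0. Their pileups hardly differed, but the input level, the local background recovered from pileup and fold enrichment, was 2.50 times the genome-wide background at the nearer peak and 1.20 times at the farther. At the promoter peak it was 1.27 times. In tags these levels were 5.51, 2.65 and 2.79. They are small values without an interval, and their differences were not tested. The pileup intervals of all 3 peaks overlapped.

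IL3 had no summit in its body or within 5 kb. Its nearest, the peak 4265 bp before CSF2, lay 6.32 kb past the end of IL3, and CSF2 was the nearer gene for all 3 peaks. The word in the IL3 promoter, with its first base 140 before the start, stood 9.0 kb from the nearest summit. CSF2 and IL3 thus differed in that the peak and the word fell together at CSF2 and apart at IL3.

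**Figure D2:**
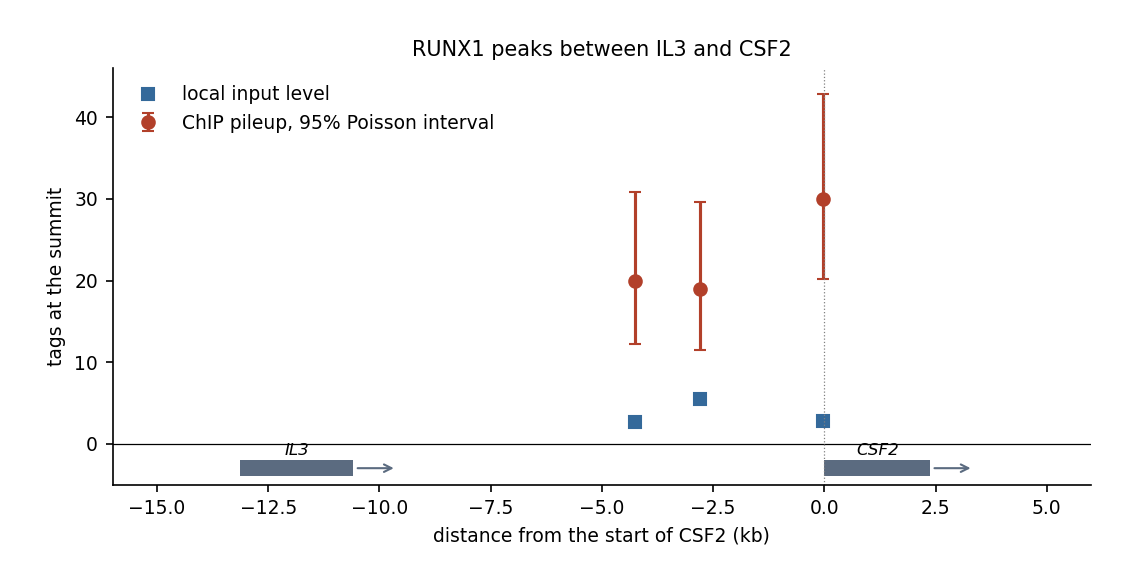
Pileup (circles, with exact 95% Poisson intervals) and local input level (squares), both in tags, of the 3 peaks between IL3 and CSF2, against the distance from the start of CSF2 in kb. The peak at the start has 30 tags and the others have 19 and 20, with intervals that overlap; bars with arrows mark the genes and their direction.

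CSF1R encodes the receptor for macrophage colony-stimulating factor and lies farther along the same arm of chromosome 5. It had 1 peak, at chr5:150112701-150112924, with the summit inside the gene and 551 bp after the outer listed start. The pileup was 18 tags (10.7 to 28.4), the fold enrichment 4.01 and the −log10 q 4.23, and 73.2% of all peaks had a higher one. The input level there was 1.70 times the genome-wide background. The word TGTGGT of the inner promoter, with its first base 71 before that start, lay 26.2 kb from the summit. The outer promoter had no such word within the 300 bases searched. This was the weakest of the 5 genes by best −log10 q, and its peak was lost both with a required fold enrichment of 5 and with an input level limited to 1.5 times the background.

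The 3 genes on chromosome 5 share a region in which the input itself was raised. From 120 Mb to the end of that chromosome the 521 peaks had a median input level of 1.56 times the genome-wide background, against 1.11 for the whole list, and a median pileup of 21 tags, against 18. There, 66.2% of 482 protein-coding genes had a peak within 50 kb, and elsewhere 51.7% of 19551 did. Of the 7 blood targets on other chromosomes, 2 had a peak, SPI1 and ELANE. What the raised input contributed to the peaks at CSF2, IL3 and CSF1R was not tested.

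Of the transcription factor genes, SPI1, CEBPA, GFI1 and TAL1, only SPI1 had a peak within 50 kb. The share of all protein-coding genes with a peak by the same rule was 52.1%, and the difference was not tested. SPI1 encodes PU.1, a master regulator of myeloid and B cells that RUNX1 is known to switch on through a distal element. Its peak, at chr11:47355311-47355482, had the summit inside the gene, 514 bp from the lower-coordinate end and 23173 bp from the other. The pileup was 21 tags (13 to 32.1), the fold enrichment 5.86 and the −log10 q 8.53, with 30.1% of all peaks higher, over an input level of 1.25 times the background. No other summit lay within 100 kb of SPI1. No promoter or strand was matched for SPI1, so the peak was not placed against its start. Whether the peak lies at the distal element was not tested.

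CEBPA encodes C/EBPα, which drives granulocyte formation. Its nearest peak missed the window, standing 58.3 kb before the start at chr19:33360782-33361039. It was not weak, with 25 tags (16.2 to 36.9), a fold enrichment of 6.92 and a −log10 q of 12.1, and its nearest gene was the related CEBPG, 12834 bp away. At the 50 kb limit, ELANE with its peak at 27.7 kb was the last gene inside and CEBPA the first outside.

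GFI1 encodes a zinc finger repressor of granulocyte and stem cell programmes, and TAL1 encodes a basic helix-loop-helix protein at the top of the blood programme. These genes were the farthest from any peak. The nearest summit to GFI1 lay 143 kb away, where the genes GLMN and RPAP2 overlap, with 16 tags (9.15 to 26.0) and a −log10 q of 5.90. For TAL1 it lay 108 kb away inside CYP4Z1, with 14 tags (7.65 to 23.5) and a −log10 q of 3.66. Of all protein-coding genes, 76.4% had a peak at least as near as that of GFI1 and 70.0% at least as near as that of TAL1, so neither gene was at the edge of the distribution. For TAL1 the lack of a peak stood beside a promoter with 4 words.

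Of the 3 genes of mature blood cell products, 1 had a peak within 50 kb, against the background of 52.1%. MPO and ELANE encode myeloperoxidase and neutrophil elastase, enzymes of neutrophil granules, and ITGA2B encodes the α chain of the platelet fibrinogen receptor. ELANE had 1 peak in its window, at chr19:883959-884045, 27.7 kb from the gene. It lay inside another gene, MED16, a subunit of the Mediator complex. This peak had 17 tags (9.90 to 27.2), a fold enrichment of 5.62 and a −log10 q of 6.74, and at 87 bp was the narrowest of the 6 peaks. Its input level was at the genome-wide background, the lowest value that this measure took. The nearest summit to MPO lay 92.1 kb away inside RNF43, with 19 tags (11.4 to 29.7) and a fold enrichment of 6.25. The nearest to ITGA2B lay 92.4 kb away, with 18 tags (10.7 to 28.4) and a fold enrichment of 5.93, and its nearest gene was SLC4A1 at 11677 bp. Peaks at least as near were found for 66.2% of all protein-coding genes in the case of MPO and for 66.3% in that of ITGA2B.

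When each peak was given to its nearest protein-coding gene alone, a rule chosen after the values were seen, 3 of the 10 genes kept a peak: SPI1, CSF1R and CSF2. The peaks of IL3 passed to CSF2 and that of ELANE to MED16. The share of all protein-coding genes under this rule was not computed, so this count has no background beside it.

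The neighbourhoods of the genes without a peak were not empty. Within 1 Mb on either side lay 9 peaks for GFI1, 13 for CEBPA, 15 for ITGA2B, 19 for MPO and 22 for TAL1, and the median over all protein-coding genes was 13. Genes with a peak had 8 around SPI1, 17 around CSF2 and around IL3, 18 around ELANE and 31 around CSF1R. The range of these counts thus overlapped between the genes with and without a peak.

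The 6 peaks were of ordinary height. Their pileups ran from 17 to 30 tags with a median of 19.5, beside a median of 18 (quartiles 15 and 23) over the list. Their median fold enrichment was 5.69, beside 5.06, and 5 of the 6 were wider than the list's median of 153 bp. The lowest pileup of any listed peak was 10 tags, or 4.54 times the genome-wide background of 2.20 tags. Weaker binding is not in the list, and the tag coverage at the genes themselves was not examined. For the 5 genes without a peak, none was listed within 50 kb at this depth, which is not the same as binding being absent.

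**Figure D3:**
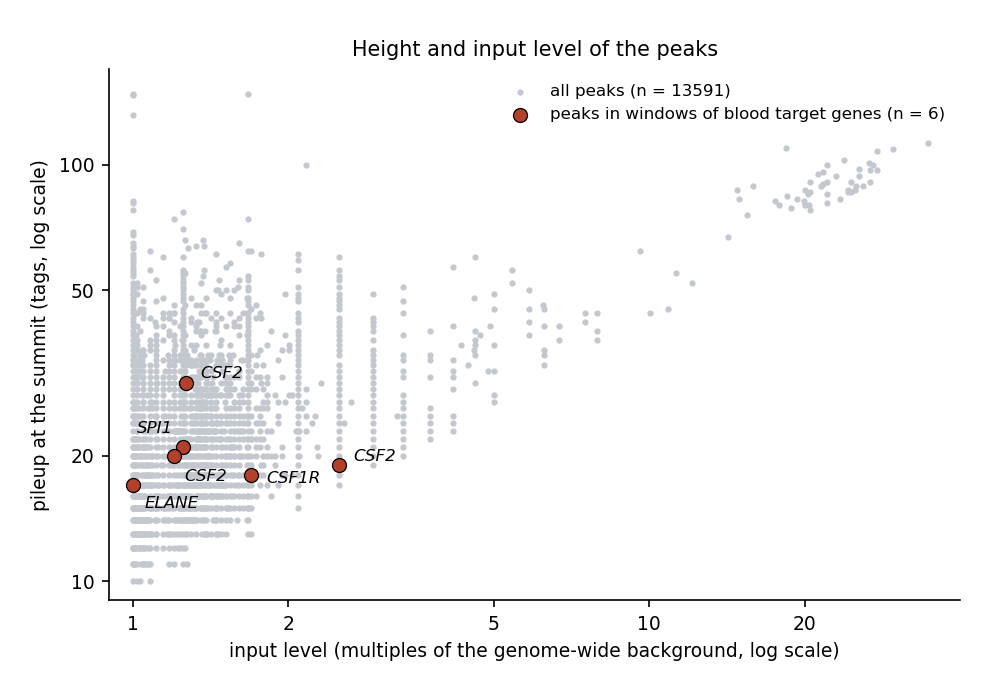
Pileup at the summit in tags against the input level in multiples of the genome-wide background, both on log scales, for all 13591 peaks (grey) and for the 6 peaks in the windows (red, labelled with the gene). The 6 peaks lie among the bulk of the list at 17 to 30 tags, and the one with the highest input level, 2.50, is the CSF2 peak 2802 bp before the start.

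Other genes of the blood programme were taken from 2 lists. Of 16 further transcription factor genes, 5 had a peak within 50 kb (31.2%), below the background of 52.1%. At the shorter distances the shares lay near the background, with 5 genes within 5 kb (31.2% against 24.8%) and 4 in the gene itself (25% against 18.7%). The median length of these genes was 35.7 kb, beside 24.1 kb for all genes, and the part of length was not tested. The 5 genes were LYL1, NFE2, LMO2, FLI1 and ETV6. The best peak of LYL1, a close relative of TAL1, lay in the gene with 38 tags (26.9 to 52.2). The input level there, which has no interval, was 2.50 times the background. That of NFE2, a factor of red cell and platelet formation, lay 3.36 kb from the gene with 26 tags (17.0 to 38.1). LMO2, which encodes a bridging partner of TAL1, had a best peak in the gene with 30 tags (20.2 to 42.8). FLI1 and ETV6, ETS family factors, had best peaks in the gene with 25 (16.2 to 36.9) and 19 tags (11.4 to 29.7). The input level was at the background at the NFE2 peak, 1.67 times it at LMO2, 2.09 at FLI1 and 1.24 at ETV6. The fold enrichment was 4.65 at FLI1 and 5.38 at ETV6, so the peak with more tags had the smaller fold enrichment.

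Of 24 blood effector genes, a list of cytokine receptor, granule, surface and lymphoid genes, 13 had a peak (54.2%), close to the background. The strongest stood 0.11 kb from ITGB2, the β2 integrin chain of white blood cells. It spanned chr21:44928742-44929080 and had 70 tags (54.6 to 88.4), a fold enrichment of 18.9 and a −log10 q of 65.6, rank 15 in the whole list and above every peak of the 10 target genes. CD14, a coreceptor for bacterial lipopolysaccharide on monocytes, had a peak 9.29 kb away with 46 tags (33.7 to 61.4). PTPRC, which encodes the pan-leukocyte phosphatase CD45, had a best peak 19.4 kb away with 39 tags (27.7 to 53.3). GP1BA, a platelet receptor chain, had 27 tags (17.8 to 39.3) in the gene, and CSF3R, the receptor of granulocyte colony-stimulating factor, had 24 tags (15.4 to 35.7) at 29.1 kb. The input levels of these peaks were 1.25 times the background for ITGB2 and GP1BA, 1.73 for CD14, 1.98 for PTPRC and 1 for CSF3R. PRTN3, a granule protease gene beside ELANE that was named after its value was seen, had the ELANE peak as its only one, at 35.8 kb.

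For comparison, all 10 of a list of genes used by basal mammary epithelium had a peak within 50 kb, against 52.1% of all genes, and 6 had one within 5 kb, against 24.8%. Among the 5 with the highest −log10 q, the best peak of KRT5, which encodes a basal keratin, lay 1.58 kb from the gene with 34 tags (23.5 to 47.5). That of LAMB3, a laminin chain of the basement membrane, lay 4.88 kb away with 34 tags (23.5 to 47.5). The best peaks of the other 3 lay towards the edge of the window. KRT17, another keratin gene, had 32 tags (21.9 to 45.2) at 41.4 kb, CDH3, which encodes P-cadherin, had 27 (17.8 to 39.3) at 43.3 kb, and ITGB4, the hemidesmosome integrin chain, had 22 (13.8 to 33.3) at 36.4 kb. The epithelial genes had a median length of 55.1 kb, beside 12.5 kb for the blood targets, and the part of gene length in these counts was not tested. Nor was the difference between the lists, which were chosen with earlier results of these data known.

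**Figure D4:**
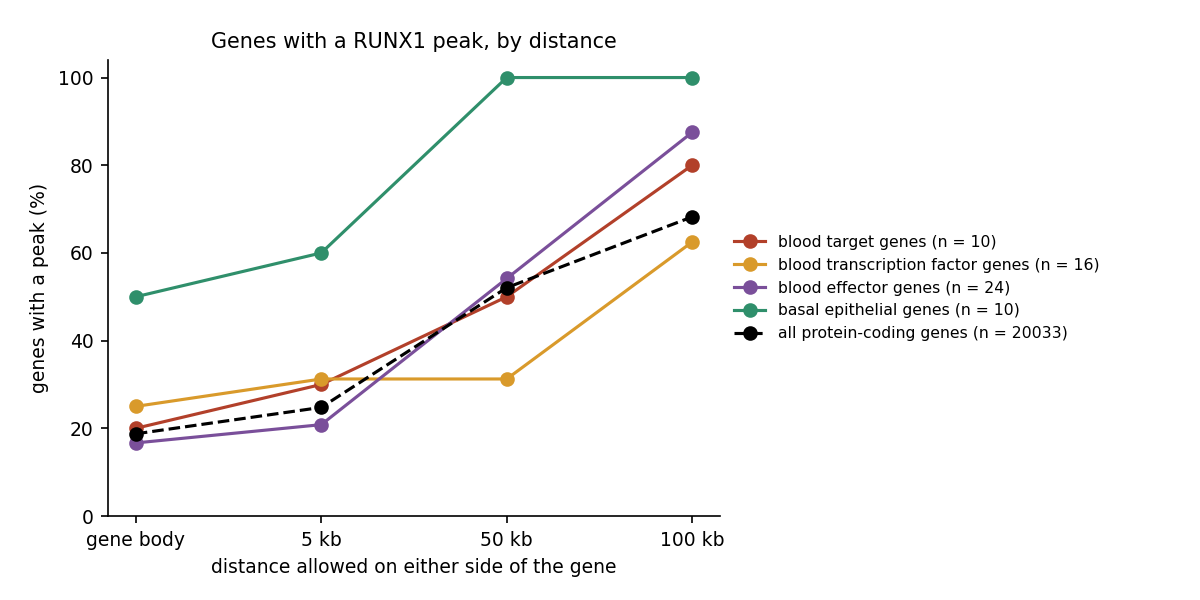
Share of genes with a peak, in percent, against the distance allowed on either side of the gene, for the 10 blood target genes, 16 blood transcription factor genes, 24 blood effector genes, 10 basal epithelial genes and all 20033 protein-coding genes (dashed). At 50 kb the blood targets stand at 50% beside 52.1% for all genes, the blood transcription factors at 31.2% and the epithelial genes at 100%.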

How the data were processed

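Reads had been aligned by the authors to hg38; the submitters' processing notes name Bowtie2. Per the file headers, peaks were called with MACS 2.1.2 on 1 ChIP library against 1 input library at a q limit of 0.05, with 54 bp tags extended to 74 bp and at most 1 tag per position and strand. The deposited pileup is a signal, in extended tags. The deposited fold enrichment is a ratio, pileup plus 1 over local background plus 1, and the deposited p and q are −log10 values.

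From these, the input level was recovered as the local background in multiples of the genome-wide one. It took no value below 1 at any listed peak, so 1 acts as a floor, and it was given no interval. Summits were placed against gene intervals and promoters of the RefSeq GRCh38.p14 tables with pandas 2.3.3 and numpy 2.4.6. Intervals came from scipy 1.17.1. The counting was checked on drawn positions. Exons were not used here. No test was made, since each group has 1 library. All 10 genes, the nearest gene to each of their peaks and the 5 strongest of each other list are named. The genes and lists were chosen with earlier results of these data known, and the 3 further lists were written from general knowledge of blood and epithelium.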

Additional observations from a re-analysis of the deposited data

How the results depend on the processing

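Of 34 alternatives over 6 counts, 22 left the count within 1.5 times and 12 did not; 3 of the 34 were chosen after seeing the data. The distance allowed moved the counts by construction. With the gene body alone, 2 of the 10 blood targets, 4 of the blood effector genes and 5 of the basal epithelial genes had a peak, and 2 peaks lay in the blood targets. With 5 kb on either side these gene counts were 3, 5 and 6. With 100 kb they were 8 blood targets with 12 peaks, 10 blood transcription factor genes (62.5%) and 21 blood effector genes (87.5%). The background moved too: of all protein-coding genes, 18.7% had a peak in the gene body, 24.8% within 5 kb and 68.2% within 100 kb. Giving each peak to its nearest gene left 3 blood targets, a count with no background share. A q limit of 0.01, overlap of any base and merging of peaks within 1 kb left 5 blood targets and 6 peaks. A fold enrichment of at least 5, or an input level under 1.5 times the background, left 4 of each, without CSF1R. In the other lists the fold limit left 4 blood transcription factor genes, 9 blood effector genes and 10 basal epithelial genes. The q limit of 0.01 left 5, 12 and 10. These counts have no background share beside them. No alternative for the promoter word moved its count of 5 genes.

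No paired analysis was possible because neither ChIP nor input was repeated. At pileups of 17 to 30 tags the counting intervals of all 6 peaks overlap, so their heights cannot be ranked.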

Other observations

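The region around CSF2 was looked at after its peaks had been seen. Of 13 protein-coding genes within 500 kb, CSF2 and IL3 included, 4 had a summit in the gene or within 5 kb: ACSL6, CSF2, PDLIM4 and SLC22A5. Of all protein-coding genes 24.8% did, so this count is near the background. SLC22A5, which encodes a carnitine transporter, had 4 peaks in the gene with up to 36 tags, beside 30 at the CSF2 start. ACSL6, an acyl-CoA synthetase gene on the other side of IL3, had 3 peaks of up to 23 tags. PDLIM4 had 1 weak peak, with 11 tags, a fold enrichment of 3.19 and a −log10 q of 1.41. IRF1, an interferon response factor, and IL5, the growth factor of eosinophils, had 0 within 5 kb, with their nearest summits at 22.4 and 82.2 kb.

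Over the listed promoters of protein-coding genes, the share with a summit inside rose with the number of words TGTGGT or TGCGGT. It was 0.651% of 17985 promoters with 0 words, 3.73% of 3731 with 1, 13.1% of 429 with 2 and 17.8% of 45 with 3. Of the 8 promoters with 4 or more, 1 had a summit, and the inner TAL1 promoter was among the other 7. That last share rests on 8 promoters.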
